A study of Mus musculus with 2 samples.

Results

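The 31 genes described here carry out or control the synthesis of cholesterol, its uptake and movement within the cell, and its export. They were chosen by gene symbol out of 31053 genes in the count matrices of pancreatic islet cells from virgin and multiparous mice, and every member was found there under exactly 1 gene identifier. The list was drawn up with earlier ratios of the 2 libraries in view, among which the ratio of Hmgcs1 in beta cells stood high, so the ratios below describe the members and support no choice of them. By role, 18 members are enzymes of synthesis, 5 control the transcription factor SREBP, 4 serve uptake, transport and storage, and 4 belong to the LXR receptors and export.

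Cells make cholesterol from acetyl-CoA through mevalonate, farnesyl diphosphate, squalene and lanosterol. The genes of this route are switched on together by SREBP, a membrane-bound transcription factor that SCAP carries to the Golgi for cleavage when sterols in the endoplasmic reticulum are low and that INSIG proteins hold back when sterols are high. When sterols are plentiful, oxysterols activate the LXR receptors, which raise the genes of cholesterol efflux. In beta cells, membrane cholesterol is known to bear on insulin granules and on channels of the plasma membrane.

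Both groups were female wild-type C57BL/6J littermates assigned at 9 weeks of age. The multipara mice had mated and given birth 3 times and their islets were taken 3 weeks after the last delivery, while the virgin mice were age-matched. Islets were kept briefly in medium with serum, dissociated with trypsin and sequenced as 1 droplet-based 3′ library per group, and the labels do not say how many mice a library pools. The study gives that number only as a lower bound. Since each group was 1 library, the spread between animals is unknown and no test between groups was run. Every 95% interval below covers counting error only, and each ratio is between libraries, not conditions.

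The virgin library held 94853806 unique molecular identifiers (UMIs, each a tag of 1 captured RNA molecule) in 5463 cell barcodes and the multipara library 82503776 in 5075, and the libraries shared 7 barcodes. After the filter of the study, 4391 and 3374 cells remained. Cell types were gated on the share of a cell's UMIs in its hormone, or on UMIs of marker genes for cells without hormones. The beta gate held 1765 virgin and 1591 multipara cells with median depths of 30027 and 31994 UMIs. The alpha gate held 1062 and 665 cells, the delta gate 365 and 316, the pancreatic polypeptide (PP) gate 69 and 79, the endothelial gate 263 and 223, and the macrophage gate 88 and 101. All 10 beta markers were detected in the beta gate of both libraries, and all 8 alpha, 6 delta, 5 PP, 8 endothelial and 9 macrophage markers in their own gates. Free insulin RNA differed between the libraries: in macrophage-gated cells, which do not make insulin, Ins2 was at 6829 CPM (counts per 1000000 UMIs) in virgin cells and 16227 CPM in multipara cells.

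Levels of a gene are given as CPM, its UMIs scaled to the summed UMIs of all genes in the gated cells. Because the 3′ chemistry counts molecules with unequal capture between genes, levels are compared for the same gene across cells and not between genes. Insulin and other islet hormones took 61.7% of the UMIs of virgin and 63.0% of those of multipara beta-gated cells, but 1.67% and 2.20% in endothelial-gated cells, which lowers every other gene of a beta cell on the CPM scale. Across the 6 cell types with at least 500000 UMIs in each library, 5 members had their highest CPM in beta-gated cells in both libraries, namely Fdps, Sqle, Lss, Cyp51 and Msmo1. With the hormone genes left out of the total, this held for 15 members. Leaving them out raises every other gene most in the hormone-rich gates. The share of all genes highest in beta-gated cells was not computed, so neither count sets the members apart from other genes.

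On the CPM scale without hormone genes in the total, Sqle, the squalene epoxidase, stood at 136 in virgin and 166 in multipara beta-gated cells, against 32.1 and 39.2 in alpha-gated cells and 2.09 CPM (3 UMIs) and 7.77 CPM (12 UMIs) in endothelial-gated cells with hormones counted. On the same scale without hormones, Msmo1, a methylsterol oxidase, stood at 175 and 251 in beta-gated cells, 84.9 and 105 in delta-gated cells and 24.1 and 27.2 in endothelial-gated cells. Both enzymes were thus highest in beta-gated cells in each library on either scale. Srebf1, which encodes the SREBP form best known for fatty acid synthesis, stood at 57.1 and 64.1 in beta-gated cells, 23.4 and 28.5 in endothelial-gated cells and 13.7 and 11.5 in macrophage-gated cells, again without hormones in the total. With hormones counted, it was highest in endothelial-gated cells at 23.0 and 27.8 CPM, close to the 21.8 and 23.7 CPM of beta-gated cells.

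The genes of sterol handling were ordered differently. Npc2, a soluble lysosomal protein that hands cholesterol out of the lysosome, reached 1030 CPM in virgin and 1308 CPM in multipara macrophage-gated cells. In alpha-gated cells it stood at 404 and 361 CPM, and in beta-gated cells at 130 and 122 CPM, so the order of these 3 cell types was the same in both libraries. Soat1, which esterifies cholesterol for storage, was also highest in macrophage-gated cells, at 62.6 CPM (95% interval 44.1 to 86.3) and 54.7 CPM (38.9 to 74.8), against 8.64 and 9.25 CPM in beta-gated cells. Npc1, the membrane partner of Npc2 in the lysosome, stood at 28.8 CPM (17 UMIs) and 28.1 CPM (20 UMIs) in macrophage-gated cells and 5.88 and 4.06 CPM in beta-gated cells.

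Abcg1, an ABC transporter that loads cholesterol onto lipoprotein particles, was highest in endothelial-gated cells at 106 and 123 CPM, against 12.6 and 11.2 CPM in beta-gated cells. Nr1h2, the widely expressed LXR receptor, was highest there as well, at 149 and 106 CPM against 14.6 and 15.04 CPM in beta-gated cells. Nr1h3, the LXR receptor of liver and macrophages, was found in macrophage-gated cells at 45.7 CPM (27 UMIs) and 15.4 CPM (11 UMIs) and in beta-gated cells at 8.35 and 8.79 CPM, while alpha-gated cells held 12 and 4 UMIs of it and delta-gated cells 3 and 3. Of the endocrine gates, beta therefore had the highest Nr1h3 level in both libraries. Without hormones in the total, Nr1h3 stood at 21.8 and 23.8 CPM in beta-gated cells. On that scale macrophage-gated cells were highest in the virgin library and beta-gated cells in the multipara library. Nr1h3 overlaps Gm13783, a processed transcript, on the same strand, so its count is uncertain.

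**Figure D1:**
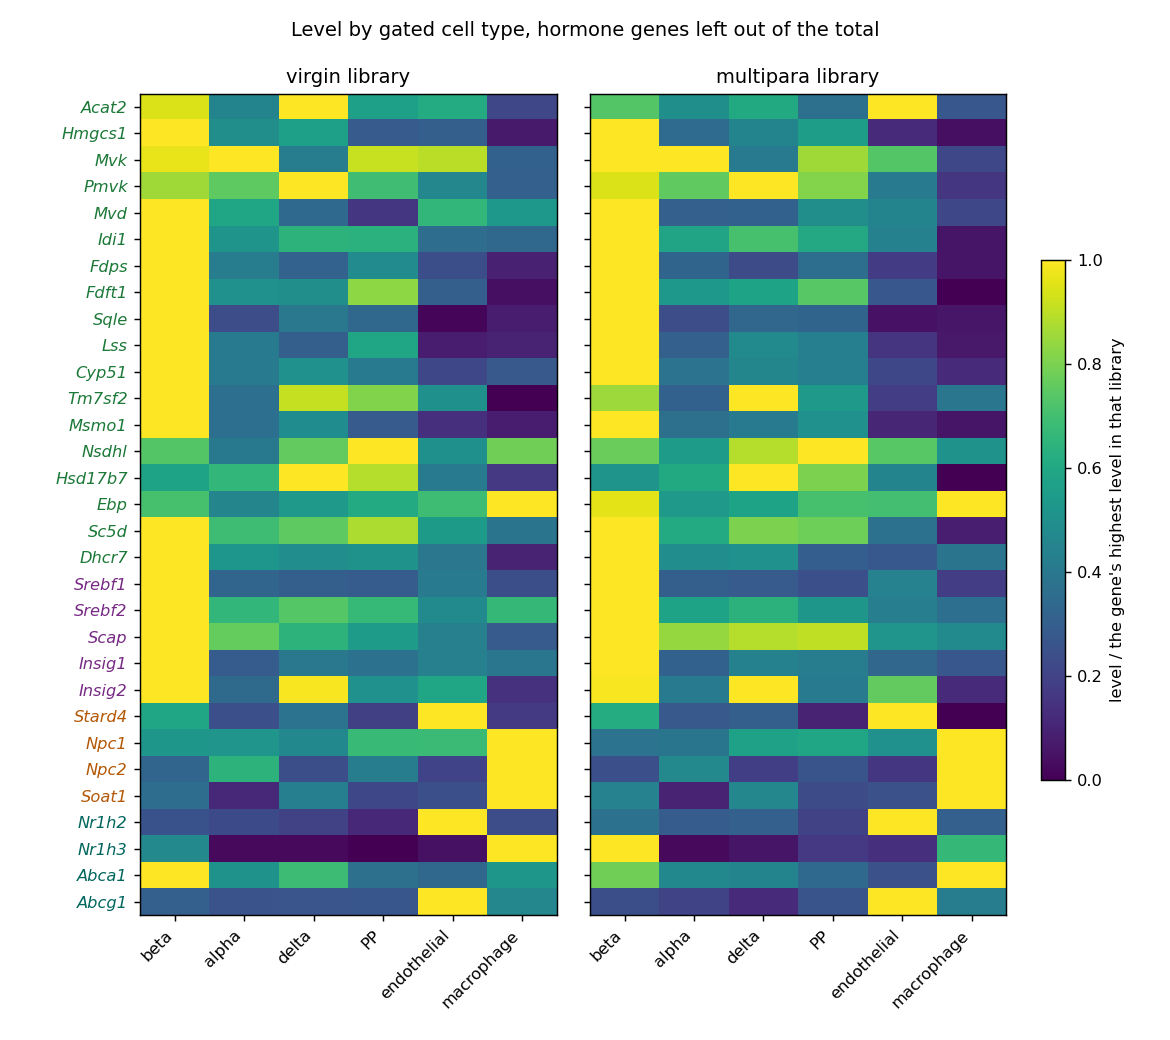
Level of each of the 31 members (rows, name coloured by role) in 6 gated cell types (columns) of the virgin and the multipara library, in CPM without hormone genes and divided by the gene's highest level in that library. Most synthesis rows are brightest in the beta column in both libraries, Npc1, Npc2 and Soat1 in the macrophage column and Abcg1 and Nr1h2 in the endothelial column.

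In beta-gated cells, the 18 synthesis genes together held 346 CPM in virgin and 472 CPM in multipara cells, giving 0.45 as the log2 ratio of multipara over virgin (95% interval 0.42 to 0.48). A member was called higher or lower at a ratio of at least 1.3-fold, a log2 ratio of 0.38, among genes whose UMIs in the 2 libraries added up to 50 or more. By this rule 6 of the 18 synthesis genes were higher in the multipara library and 0 were lower, beside 4.03% of 11887 genes higher and 11.0% lower. The 6 were Hmgcs1, Fdps, Dhcr7, Msmo1, Idi1 and Mvd. The list was drawn up with these ratios known, so nothing is read from that difference in shares. The log2 ratio was above 0 for 16 of the 18, with a median of 0.28 beside -0.09 over all genes tested, and the counting interval lay above 0 for 11.

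Hmgcs1, the cytosolic synthase that makes HMG-CoA, had the highest ratio of all members. Its level was 44.7 CPM (2287 UMIs) in virgin and 89.5 CPM (4141 UMIs) in multipara beta-gated cells, or a log2 ratio of 1.0 (0.93 to 1.08), which ranked 94 of 11887 genes from the highest. It alone took 12.9% of all virgin and 19.0% of all multipara synthesis UMIs, and without it the log2 ratio of the remaining sum was 0.34. The gene lies on chromosome 13 at 119690379 to 119708260 of GRCm38, on the plus strand.

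The first steps, from acetyl-CoA to farnesyl diphosphate, had the highest ratio among the 3 stretches of the route. Their 7 genes summed to 127 virgin and 205 multipara CPM, a log2 ratio of 0.69 (0.64 to 0.73). Hmgcs1, at 44.7 and 89.5 CPM, and Fdps held most of that sum, and the ratio of the stretch without them was not computed. The median log2 ratios of the 3 stretches, in order of the route, were 0.42, 0.19 and 0.23. Fdps, the farnesyl diphosphate synthase, stood at 36.2 and 56.4 CPM, a log2 ratio of 0.64 (0.55 to 0.73), although a protein-coding readthrough gene, Gm43738, overlaps it on the same strand and makes its count uncertain. Idi1, the isomerase of isopentenyl diphosphate, stood at 13.6 and 18.4 CPM (log2 ratio 0.43, 0.29 to 0.58). Mvd, which decarboxylates mevalonate diphosphate, was the scarcest of the genes called, with 188 and 227 UMIs (log2 ratio 0.42, 0.13 to 0.70). The kinases Pmvk and Mvk had log2 ratios of 0.34 (0.22 to 0.46) and 0.26 (0.04 to 0.49), below the limit of 1.3-fold. Acat2, the cytosolic thiolase of the opening step, stood at 2.91 and 2.87 CPM, with an interval from -0.37 to 0.33, and its reads may be shared with its close paralog Acat3.

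The stretch from farnesyl diphosphate to lanosterol differed least. Its 3 genes summed to 74.96 and 85.7 CPM, a log2 ratio of 0.19 (0.13 to 0.26), and none of them passed 1.3-fold. Sqle stood at 52.0 and 61.4 CPM (log2 ratio 0.24, 0.16 to 0.32), Lss, the lanosterol synthase, at 6.90 and 7.89 CPM (0.19, -0.02 to 0.41), and Fdft1, the squalene synthase at the branch point, at 16.1 and 16.4 CPM (0.02, -0.12 to 0.17). The counting intervals of Lss and Fdft1 both hold 0.

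The 8 genes from lanosterol to cholesterol summed to 144 and 181 CPM, a log2 ratio of 0.34 (0.29 to 0.38). Msmo1 stood at 66.9 and 93.1 CPM (0.48, 0.41 to 0.54) and Dhcr7, the reductase that makes cholesterol from its dehydro precursor, at 6.84 and 9.72 CPM (0.51, 0.30 to 0.71). These were the 2 genes of the stretch called higher. Cyp51, the lanosterol demethylase, had a log2 ratio of 0.30 (0.18 to 0.42) and Ebp, a sterol isomerase, of 0.16 (0.06 to 0.27). For Hsd17b7, Tm7sf2, Sc5d and Nsdhl, which reduce, desaturate or decarboxylate the sterol ring, log2 ratios of 0.31, 0.10, 0.06 and -0.19 came with intervals that all hold 0, and Tm7sf2 overlaps Vps51 on the same strand.

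**Figure D2:**
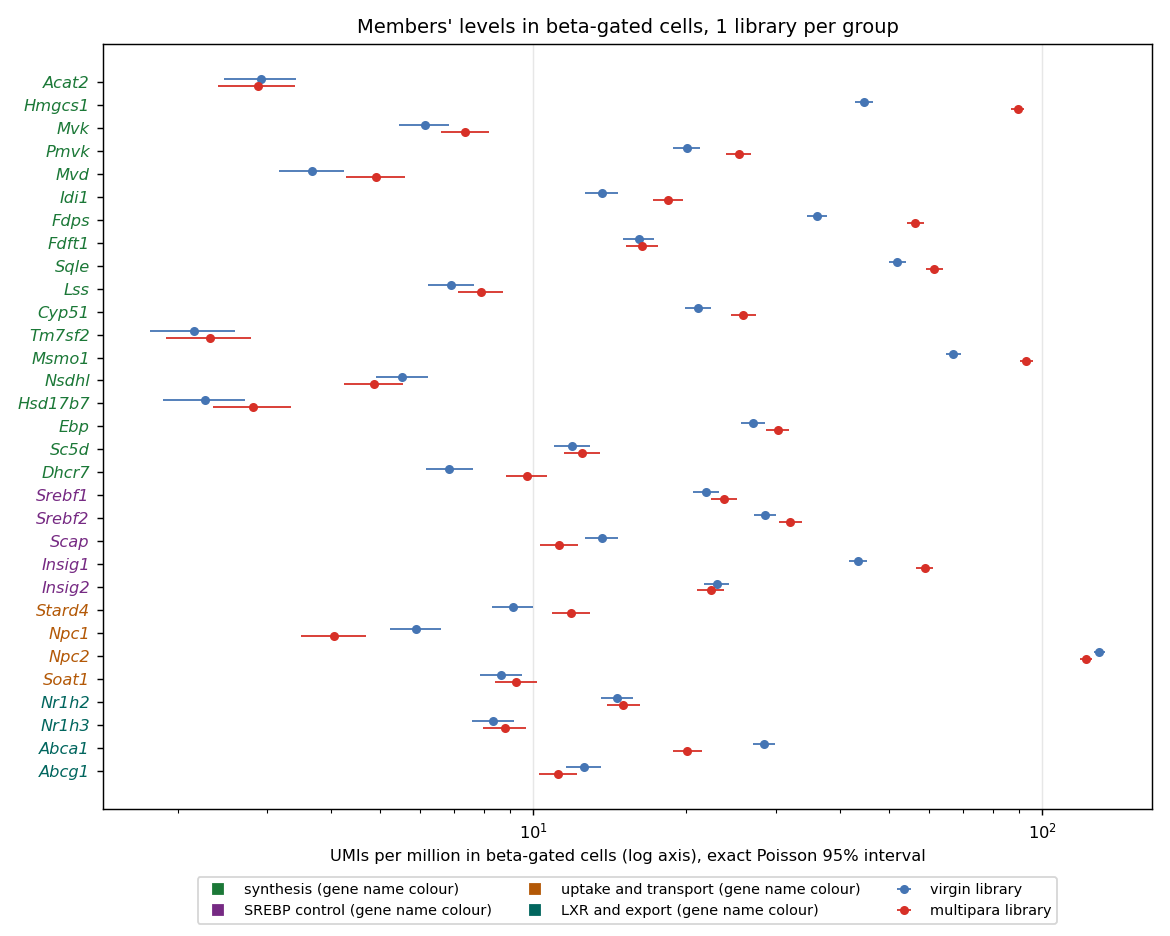
Level of each member (rows, name coloured by role) in beta-gated cells of the virgin library (blue) and the multipara library (red), in CPM on a log axis, with exact Poisson 95% intervals. Hmgcs1 sits at 44.7 and 89.5, and Abca1 at 28.4 and 20.1 in the opposite order.

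The members that control SREBP summed to 130 and 148 CPM in beta-gated cells, a log2 ratio of 0.18 (0.13 to 0.23), and 1 of the 5 was called. This was Insig1, the INSIG gene that SREBP itself drives, at 43.5 CPM (2226 UMIs) in virgin and 58.8 CPM (2720 UMIs) in multipara cells (0.43, 0.35 to 0.52). Insig2, which encodes the INSIG protein less dependent on SREBP, stood at 22.9 and 22.3 CPM (-0.04, -0.16 to 0.08). The interval of Insig1 thus lies above that of Insig2. Srebf2, the SREBP gene of cholesterol synthesis, stood at 28.5 and 32.0 CPM (0.17, 0.06 to 0.27) but overlaps Mir33 and Gm49502 on the same strand. Srebf1 stood at 21.8 and 23.7 CPM (0.12, 0.00 to 0.24), and Scap, the escort of SREBP, at 13.6 and 11.3 CPM (-0.28, -0.44 to -0.11).

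Among the 4 genes of uptake, transport and storage, Stard4, a soluble carrier of sterol between membranes, was just inside the limit for a higher call at 9.11 and 11.9 CPM (0.38, 0.20 to 0.56). Npc1 was lower in the multipara library, at 5.88 CPM (301 UMIs) against 4.06 CPM (188 UMIs), a log2 ratio of -0.53 (-0.80 to -0.27). Npc2 had a log2 ratio of -0.09 (-0.14 to -0.04), near the all-gene median, and Soat1 of 0.10 (-0.10 to 0.29). Summed, the 4 gave -0.06 (-0.11 to -0.01), a value that turned positive under other scalings.

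The LXR and export genes summed to 63.9 and 55.1 CPM, a log2 ratio of -0.21 (-0.29 to -0.14) that came to -0.02 when each cell was weighted equally. Abca1, the transporter that passes cholesterol to apolipoprotein particles, was the member called lower, at 28.4 CPM (1454 UMIs) in virgin and 20.1 CPM (930 UMIs) in multipara cells (-0.50, -0.62 to -0.38). Abcg1 stood at 12.6 and 11.2 CPM (-0.17, -0.34 to 0.00). The receptors Nr1h2 and Nr1h3 had log2 ratios of 0.04 (-0.11 to 0.19) and 0.08 (-0.12 to 0.27), with intervals that both hold 0. With each cell weighted equally, Nr1h2 came to 0.47, past 1.3-fold, and Nr1h3 to 0.03, so the value of Nr1h2 depends on the weighting.

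Over all 31 members, 8 were called higher and 2 lower in multipara beta-gated cells, and 23 had a log2 ratio above 0. TMM scaling centres the bulk of genes and adds 0.09 to every log2 ratio of this gate. With it, 11 members were called higher and 2 lower, and 26 lay above 0. Over all 11887 genes tested, the same change of scaling moved the calls from 479 higher (4.03%) and 1312 lower (11.0%) to 708 and 895. The genes above 0 went from 3829 to 6044. The summed markers of other cells in the beta gate differed between the libraries, from 2071 to 1381 CPM for the alpha list (8 of 8 genes detected in both), from 1712 to 822 CPM for the PP list (5 of 5) from 42.0 to 12.4 CPM for the B list (5 of 5), from 53.5 to 92.1 CPM for the macrophage list (9 of 9) and from 1.25 to 26.8 CPM for the erythroid list (4 of 4), and their part in the ratios was not tested.

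The promoters of Hmgcs1, Mvd, Insig1 and Abca1 are printed to set genes of synthesis and of SREBP control beside an export gene. RefSeq windows on GRCm38.p6 were at hand for 25 of the 31 members, and Fdps, Fdft1, Sqle, Stard4, Npc1 and Abcg1 had none. RefSeq starts can differ from those of GENCODE, and in 17 of the 25 members the bases before the RefSeq start lay at least partly inside the GENCODE gene in 1 or more windows. All 250 of these bases lay inside it in a window of Dhcr7, Insig2, Nr1h3, Pmvk, Srebf1 and Tm7sf2, and 214 in Msmo1. Each line gives the bases before the RefSeq start that lie outside the GENCODE gene, on its own strand, which are 250 in each gene but Insig1, with 201. Capitals mark the motifs that were searched on both strands of the whole window, which runs to 50 bases after the RefSeq start. These were an SREBP element (SRE, written TCACNCCAC), the NF-Y box CCAAT and the E-box CACGTG.
Hmgcs1 (chr13:119690101-119690350, plus strand): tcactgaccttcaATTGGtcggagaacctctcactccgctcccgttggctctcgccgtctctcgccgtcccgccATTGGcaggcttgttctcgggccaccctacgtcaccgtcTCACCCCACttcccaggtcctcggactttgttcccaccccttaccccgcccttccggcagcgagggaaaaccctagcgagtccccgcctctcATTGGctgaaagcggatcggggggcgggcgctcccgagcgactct
Mvd (chr8:122443423-122443672, minus strand): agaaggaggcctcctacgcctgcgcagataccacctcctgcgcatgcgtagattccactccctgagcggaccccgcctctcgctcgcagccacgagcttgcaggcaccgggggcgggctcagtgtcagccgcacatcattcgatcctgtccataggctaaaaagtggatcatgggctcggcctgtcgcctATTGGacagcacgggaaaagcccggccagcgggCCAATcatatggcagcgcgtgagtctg
Insig1 (chr5:28071162-28071362, plus strand): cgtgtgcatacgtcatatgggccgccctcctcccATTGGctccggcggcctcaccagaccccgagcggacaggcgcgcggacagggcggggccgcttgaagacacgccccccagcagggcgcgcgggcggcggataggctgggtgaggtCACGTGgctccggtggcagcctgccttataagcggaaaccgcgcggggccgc
Abca1 (chr4:53159896-53160145, minus strand): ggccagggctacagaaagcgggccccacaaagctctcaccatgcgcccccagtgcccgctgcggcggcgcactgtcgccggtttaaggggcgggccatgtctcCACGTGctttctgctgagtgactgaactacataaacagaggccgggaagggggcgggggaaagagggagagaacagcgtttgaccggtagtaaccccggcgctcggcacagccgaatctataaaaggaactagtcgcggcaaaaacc

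The SRE letters were found in 1 of 25 member genes, Hmgcs1, as TCACCCCAC beginning 137 bases before the RefSeq start, and in 1.44% of all 27025 genes with a window. The Hmgcs1 window also held 4 NF-Y boxes, 1 of them after that start. Of the 15 synthesis genes with a window, 14 held an NF-Y box, all but Acat2, beside 41.1% of all genes. None of the 3 LXR and export genes with a window, Nr1h2, Nr1h3 and Abca1, held one, and the Abca1 window held an E-box, as did 6 of the 25 members and 8.09% of all genes. Members with several windows (6 genes) had more letters searched, and a match describes letters and not a bound site. Among the members called higher with a window, Hmgcs1, Idi1, Mvd, Msmo1, Dhcr7 and Insig1, each held at least 1 NF-Y box, but so did Nsdhl, Insig2 and Npc2, whose log2 ratios were below 0.

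In alpha-gated cells the synthesis genes summed to 257 and 306 CPM, a log2 ratio of 0.25 (0.19 to 0.32). Of 17 synthesis genes with enough UMIs, 5 were called higher and 1 lower, beside 3.06% of 10789 genes higher and 11.3% lower. Those higher were Idi1 (0.59, 0.29 to 0.88), Hmgcs1 (0.48, 0.31 to 0.65) and Msmo1 (0.47, 0.31 to 0.63), and Acat2 and Dhcr7 with intervals that hold 0. Mvd was the gene called lower, on 58 and 27 UMIs, and its interval of -1.26 to 0.13 holds 0 too. Insig1 stood at 19.8 and 28.3 CPM (0.52, 0.29 to 0.74) and Stard4 at 5.95 and 8.31 CPM (0.48, 0.06 to 0.90). Abca1 stood at 22.7 and 18.5 CPM (-0.30, -0.54 to -0.05) and Npc1 at 9.13 and 6.41 CPM (-0.51, -0.93 to -0.10).

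In delta-gated cells the synthesis sum was 360 and 432 CPM, a log2 ratio of 0.26 (0.16 to 0.37). Here 4 of 13 synthesis genes were called higher and 0 lower, beside 4.66% of 8931 genes higher and 12.1% lower. Hmgcs1 stood at 46.7 CPM (180 UMIs) and 75.2 CPM (237 UMIs), a log2 ratio of 0.69 (0.40 to 0.97), and Idi1 at 16.3 and 24.4 CPM (0.58, 0.08 to 1.08), while Hsd17b7 and Dhcr7 passed on intervals that hold 0. Insig1 stood at 32.2 and 48.2 CPM (0.58, 0.23 to 0.94). The exporters were lower, Abca1 at 36.1 CPM (139 UMIs) against 21.6 CPM (68 UMIs), a log2 ratio of -0.74 (-1.18 to -0.31), and Abcg1 at 19.97 CPM (77 UMIs) against 10.5 CPM (33 UMIs), -0.93 (-1.57 to -0.33).

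The level of Ins2 in these gates gives the share of beta-cell RNA they could carry. In alpha-gated cells Ins2 stood at 0.948% of its beta level in virgin and 1.63% in multipara cells, and beta RNA at those shares would hold 3.28 and 7.69 CPM of synthesis genes. In delta-gated cells the shares were 1.36% and 2.44%, for 4.72 and 11.5 CPM. The part of such carried-over RNA in the ratios was not tested.

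**Figure D3:**
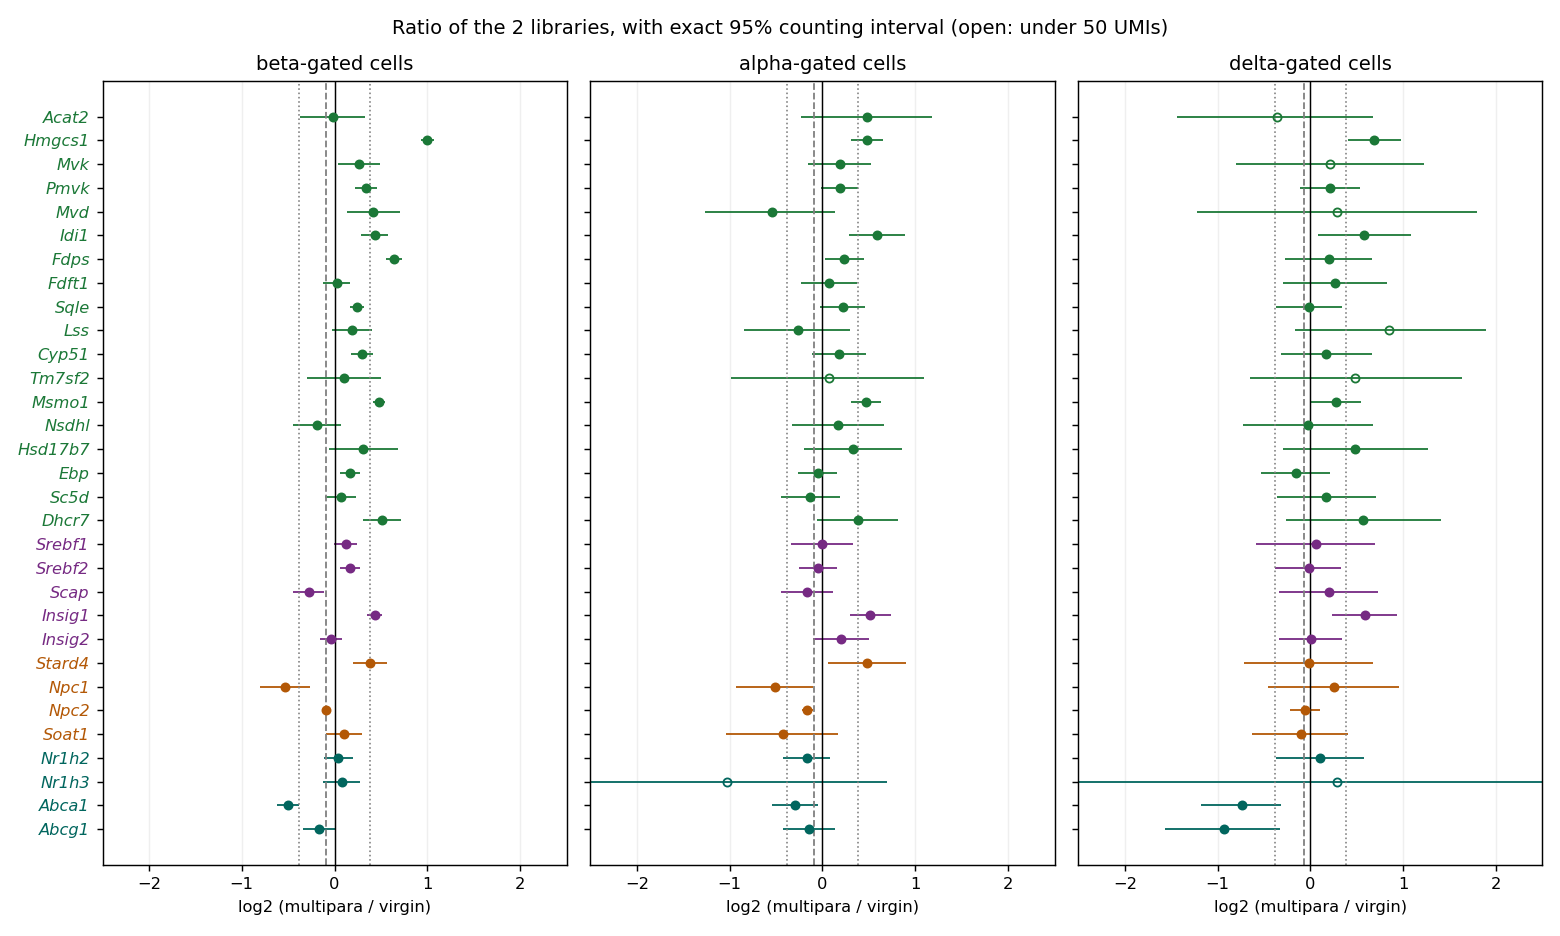
Log2 ratio of multipara over virgin for each member (rows, name and point coloured by role) in beta-gated, alpha-gated and delta-gated cells, with exact 95% counting intervals. The dashed line is the median of all genes, dotted lines mark 1.3-fold and open points rest on under 50 UMIs, and the interval of Nr1h3 runs past the axis in the alpha and delta panels. Hmgcs1, Idi1 and Insig1 lie right of the dotted line in all 3 panels, and Abca1 lies left of 0 in all 3.

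The PP gate held few cells, but its synthesis sum was 195 CPM (303 UMIs) in virgin and 281 CPM (524 UMIs) in multipara cells (log2 ratio 0.53, 0.32 to 0.74). Hmgcs1 went from 22 UMIs, seen in 14 of 69 virgin cells, to 103 UMIs in 46 of 79 multipara cells (log2 ratio 1.97, 1.29 to 2.70). A single multipara cell held 22 of these UMIs, and without it the log2 ratio was 1.65 (0.95 to 2.40). Msmo1 followed with 33 and 97 UMIs (1.29, 0.71 to 1.91), or 1.13 (0.54 to 1.76) without the cell that held most.

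Outside the endocrine gates the counting interval of the synthesis sum held 0 in each of the 5 cell types compared. Endothelial-gated cells held 282 and 297 CPM (0.07, -0.12 to 0.27), with Hmgcs1 at 34.8 and 27.8 CPM (-0.32, -0.94 to 0.30), an interval below that of beta-gated cells. Macrophage-gated cells held 230 and 182 CPM (-0.33, -0.69 to 0.02), on 136 and 130 UMIs. In pericyte-gated, T-gated and B-gated cells the sums rested on 44 to 350 UMIs. Their log2 ratios were -0.44 (-1.04 to 0.15), 0.45 (-0.02 to 0.92) and -0.04 (-0.48 to 0.38), so the intervals are wide. Summed markers in these gates differed too. In the pericyte gate the beta list went from 16802 to 40073 CPM and the pericyte list from 14839 to 13436 CPM. In the T gate the erythroid list went from 2.23 to 25784 CPM and the T list from 5526 to 5538 CPM. In the B gate the B list went from 52217 to 15931 CPM. The part of these lists in the ratios was not tested. Fibroblast-gated cells were not compared, with 58 virgin and 6 multipara cells.

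Endothelial-gated and macrophage-gated cells differed between the libraries in other members, to be read beside all genes tested there. In the endothelial gate 8.70% of 6611 genes were at least 1.3-fold higher and 11.4% lower. In the macrophage gate 13.1% of 2654 genes were higher and 28.6% lower. Nr1h2 stood at 149 CPM (214 UMIs) in virgin and 106 CPM (163 UMIs) in multipara endothelial-gated cells, a log2 ratio of -0.50 (-0.80 to -0.20), while Abcg1 in the same cells gave 0.22 (-0.10 to 0.54). In macrophage-gated cells Npc2 was at 0.34 (0.20 to 0.49), Abca1 at 38.9 CPM (23 UMIs) and 67.4 CPM (48 UMIs), a log2 ratio of 0.79 (0.05 to 1.58), and Nr1h3 at -1.56 (-2.72 to -0.51) on 27 and 11 UMIs, under the minimum of 50. In the endothelial gate, the summed markers of other cells went from 305 to 762.3 CPM for the pericyte list (7 of 7 genes), from 3026 to 5945 CPM for the erythroid list (4 of 4), from 11861 to 20250 CPM for the beta list (10 of 10) and from 3020 to 573 CPM for the PP list (4 of 5). The 9 macrophage markers summed to 18493 and 25975 CPM in the macrophage gate and the 10 beta markers to 10216 and 24852 CPM. The part of these lists in the ratios of either gate was not tested.

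**Figure D4:**
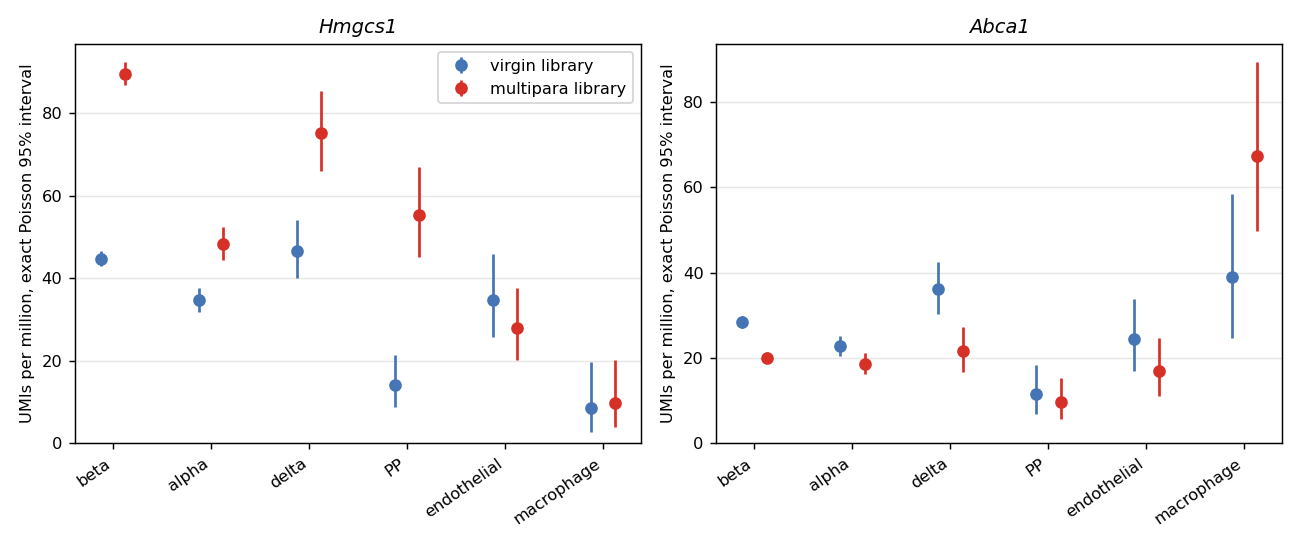
Level of Hmgcs1 (left) and Abca1 (right) in CPM in 6 gated cell types of the virgin (blue) and multipara (red) library, with exact Poisson 95% intervals. Hmgcs1 is higher in the multipara library in the 4 endocrine gates, and the order of the libraries for Abca1 is reversed between macrophage-gated cells and the others.

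To see how the difference was spread over beta-gated cells, each cell was thinned to 15000 UMIs, and the 251 virgin and 335 multipara cells below that depth were dropped. The summed synthesis genes then had a median of 5 UMIs per cell in the virgin library (10th to 90th percentile 2 to 9) and 7 in the multipara library (3 to 13), so the distributions overlapped. At 5500 UMIs the 10th percentile, the 25th percentile and the median were 0, 1 and 2 in both libraries, and the 90th percentile was 4 for virgin and 5 for multipara cells. The share of cells with a Hmgcs1 UMI was 43.7% (exact 95% interval 41.1 to 46.2) and 59.4% (56.6 to 62.1). At 5500 UMIs per cell it was 20.5% and 33.3%, and without thinning 57.8% and 67.2%. In macrophage-gated cells, where Hmgcs1 was lowest, the share at 5500 UMIs was 5.36% of 56 virgin and 4.88% of 82 multipara cells, and 5.68% and 6.93% without thinning at median depths of 6408 and 7145 UMIs.

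Hmgcs1 also had the highest variance over mean of the members in beta-gated cells. At 15000 UMIs its variance over cells was 1.73 times its mean for virgin and 2.45 times for multipara cells. Counting noise alone gives 1, and Msmo1 came next with 1.28 and 1.57. Variance over mean rises with the mean where cells differ, and the mean of Hmgcs1 was 0.705 and 1.37 UMIs. It therefore ranks neither members of unlike level nor the libraries by unevenness. Cells with at least 4 Hmgcs1 UMIs made up 2.38% of virgin cells (36 of 1514) and 10.4% of multipara cells (130 of 1256). These cells held a mean of 6.39 ± 2.11 (SD) and 7.80 ± 3.63 UMIs of the other 17 synthesis genes, against 4.28 ± 2.47 and 5.25 ± 2.71 in cells with no Hmgcs1 UMI. Within both libraries the mean of the other synthesis genes was thus higher where Hmgcs1 was high. The 15000 UMIs include those of hormones, so cells with a smaller hormone share hold more UMIs of all remaining genes. The part of this in the difference between classes was not tested. Among cells with no Hmgcs1 UMI, the mean of the other synthesis genes still differed between the libraries, 4.28 against 5.25. From cells with no Hmgcs1 UMI to cells with at least 4, Insig1 went from 0.610 to 1.08 UMIs per cell in the virgin library. In the multipara library it went from 0.835 to 1.08. Abca1 was at 0.424, 0.515 and 0.333 UMIs per virgin cell with 0, 1 to 3 and at least 4 Hmgcs1 UMIs, the last in 36 cells. In multipara cells it was at 0.300, 0.312 and 0.315.

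**Figure D5:**
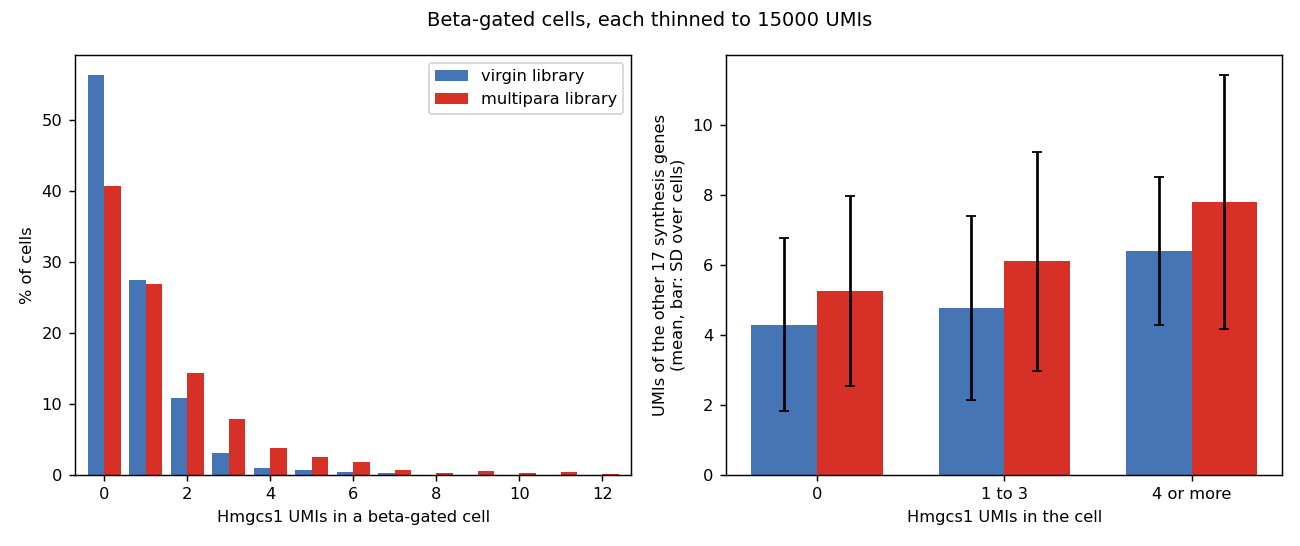
Beta-gated cells, each thinned to 15000 UMIs, of the virgin (blue) and multipara (red) library. Left, percentage of cells by Hmgcs1 UMIs. Right, mean UMIs of the other 17 synthesis genes in cells with 0, 1 to 3 and at least 4 Hmgcs1 UMIs, with the SD over cells as error bars. At least 4 UMIs were found in 2.38% of virgin and 10.4% of multipara cells, and the mean of the other genes is higher to the right in both libraries.

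The ratio of the synthesis sum was above 0 in beta-gated cells of every depth. In 5 bins of total UMIs, from below 10000 to between 40000 and 60000, it ranged from 0.27 to 0.52 on the log2 scale, and that of Hmgcs1 from 0.59 (0.27 to 0.92, at 10000 to 20000 UMIs) to 1.21 (1.06 to 1.36, at 40000 to 60000). Nupr1, a stress-induced gene, had a UMI in 649 of 1765 virgin and 989 of 1591 multipara beta-gated cells. The log2 ratio of the synthesis sum was 0.44 (0.40 to 0.48) in cells with a Nupr1 UMI and 0.42 (0.38 to 0.47) in cells without, and that of Hmgcs1 was 1.09 (0.98 to 1.20) and 0.93 (0.82 to 1.04). Within the virgin library the synthesis sum was 351 CPM with and 342 CPM without a Nupr1 UMI, and within the multipara library 477 and 459 CPM, so the libraries differed by more than these classes.

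Genes next to the members in the pathway were described by lists, to be read beside the 4.03% of all genes called higher and the 11.0% called lower in beta-gated cells and the all-gene median of -0.09. Of 11 genes that cleave SREBP or degrade sterol-regulated proteins, 0 were called in either direction in beta-gated cells, with a median log2 ratio of -0.20. The highest were Vcp, the segregase of protein degradation, and Aup1, both at 0.07, and the lowest were the ubiquitin ligase gene Rnf139 (-0.36) and Erlin2 (-0.26). Of 17 sterol carriers and genes of lysosomal or lipoprotein handling with enough UMIs, 0 were called (median -0.03), from Nceh1, a cholesterol ester hydrolase, at 0.25 and Tmem97 at 0.22 to Stard5 at -0.29 and Osbpl5 at -0.31. Of 12 genes that use isoprenoids for dolichol, ubiquinone, prenylation or tRNA, 0 were called (median -0.02), with Dhdds of dolichol synthesis at 0.28 and Trit1 of tRNA at 0.24, and the prenyltransferase subunits Fnta at -0.26 and Pggt1b at -0.25.

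Of 8 LXR partners and targets with enough UMIs, 0 were called higher and 1 lower, with a median of -0.15, and 1 of 8 is near the 11.0% of all genes called lower. The one lower was Mylip (-0.45, -1.0 to 0.09), a ubiquitin ligase of lipoprotein receptors, named for being the one called. Abca2 and Smpdl3a were highest at -0.01 and -0.11, and the receptor partner Rxra and the corepressor Ncor1 lowest at -0.30 and -0.16. Of 11 genes of fatty acid synthesis and desaturation, 1 was called higher and 1 lower (median 0.09, beside -0.09 over all genes), counts too small to set the list apart from the 4.03% and 11.0% of all genes. The fatty acid desaturase Fads1 stood at 8.09 and 11.4 CPM (0.50, 0.31 to 0.69), followed by Me1, the malic enzyme, at 0.28. The elongase Elovl6 and the carboxylase Acaca were the lowest of those with at least 200 UMIs, at -0.11 and -0.05, and the gene called lower was Scd1 on 44 and 27 UMIs (-0.56, -1.31 to 0.16).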

How the data were processed

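Deposited UMI counts of 1 library per group were used. Per the labels and the study's methods, the authors made them with Cell Ranger 3.1.0 on GRCm38 (mm10), and Seurat 3.0 was used for their own analysis. Gene names came from the deposited feature lists. Cells were kept by the study's filter (over 200 and under 6000 genes, under 60000 UMIs, under 10% mitochondrial UMIs). Hormone gates needed at least 10% (insulin), 5% (Gcg), 3% (Sst) or 20% (Ppy and Pyy) of UMIs, and less than 10, 2, 1 and 20% of the others. Other gates needed at least 3 markers and 2 times the UMIs of the next list. Gate limits were read off marker shares alone. Of kept cells, 8.08% (virgin) and 7.35% (multipara) fell in no gate. Doublets called by Scrublet (scanpy 1.11.5; 61 and 44 cells) stayed in and were removed in an alternative.

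UMIs were summed per gate and library. Ratios had exact conditional binomial, levels exact Poisson and shares exact Clopper-Pearson 95% intervals. Cells were thinned by drawing UMIs without replacement. TMM factors came from edgeR 4.0.16 (R 4.3.3). Gene locations came from GENCODE M21. The ratio script was tested on simulated data. All members were named, and of neighbouring lists the 2 highest and 2 lowest with at least 200 UMIs, plus 2 genes with fewer UMIs (Mylip, Scd1) named after their values were seen. The members and lists were chosen with earlier results of these data known. Alternatives covered the cell filter, gates, scaling, weighting, depth, doublets and mitochondrial share. Other software was python 3.11.15, numpy 2.4.6, pandas 2.3.3, scipy 1.17.1 and matplotlib 3.10.9.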

Additional observations from a re-analysis of the deposited data

Results flagged for a closer look

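Abca1 was at least 1.3-fold apart between the libraries, with a counting interval clear of 0, in opposite directions in different cell types. Its log2 ratio of multipara over virgin was -0.50 in beta-gated and -0.74 in delta-gated cells and 0.79 in macrophage-gated cells, the last on 23 and 48 UMIs. The difference between cell types was not tested, since each group was 1 library.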

How the results depend on the processing

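No paired analysis was possible because each group was 1 library, and for the same reason no replicate could be left out. In beta-gated cells, the log2 ratio of the synthesis sum (0.45) was 0.50 with hormone genes left out of the total, 0.39 with cells weighted equally, 0.54 by median of ratios, 0.54 by TMM and 0.34 without Hmgcs1. That of SREBP control (0.18) was 0.10 with cells weighted equally, 0.28 by median of ratios and 0.28 by TMM. That of uptake and transport (-0.06) was -0.012 without hormones, -0.0064 with cells weighted equally, 0.024 with cells thinned, 0.037 by median of ratios and 0.034 by TMM. That of LXR and export (-0.21) was -0.017 with cells weighted equally, -0.12 by median of ratios and -0.12 by TMM. In alpha-gated cells the synthesis sum (0.25) was 0.32 without hormones, 0.34 with cells thinned, 0.35 by median of ratios and 0.34 by TMM. At 1.5-fold, 2 synthesis genes were called in beta-gated cells. Without hormones in the total, 15 members were highest in beta-gated cells, a count with no share of all genes beside it. Of 310 alternative values for single members in beta-gated cells, 281 stayed within the counting interval and 29 did not, and none of the called members changed sign. Of the 10 members called, 7 came below 1.3-fold under at least 1 alternative, and Hmgcs1, Fdps and Msmo1 stayed past it under each. With cells weighted equally these were Mvd (0.19), Stard4 (0.18), Insig1 (0.28), Npc1 and Abca1, in cells under 5% mitochondrial UMIs Dhcr7 (0.32), Insig1, Mvd and Stard4, with cells thinned Idi1 (0.32) and Npc1 (-0.28), without a cell filter Mvd and Stard4, and with the looser gate or Scrublet calls removed Stard4. The number of synthesis genes called higher (6) ranged from 4 in cells under 5% mitochondrial UMIs to 9 by TMM and by median of ratios. Hmgcs1 ranged from 0.77 with cells weighted equally to 1.10 by median of ratios, and Abca1 from -0.67 with cells thinned to -0.31 with cells weighted equally. Depth limits the members with under 50 UMIs, most of them outside the endocrine gates, and no interval covers the spread between animals.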
